A study of Mus musculus with 12 samples.

Results

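The regions where BRD2 and BRD3 were called after 4 h of the bromodomain inhibitor I-BET (500 nM) are described here, in RAW264.7, a macrophage-like mouse line used as a model of osteoclast precursors. Members were all 3299 regions of the pair of I-BET peak lists, 1067 of BRD2 and 2232 of BRD3, out of 16188 regions in the 8 lists of the series. A region was taken as shared when it overlapped a region of the other list by at least 1 bp. The series holds 1 ChIP library for each of BRD2 and BRD3 in cells given I-BET, RANKL (50 ng/ml, the cytokine that starts osteoclast formation), RANKL with I-BET, or nothing, and 1 input library per condition, for which no list was used here. All cells were cross-linked for 15 min in 1% formaldehyde, no genotype differs between groups, and the labels give bone marrow as the source and RAW264.7 as the line. With 1 library per antibody and treatment, no difference below has a replicate check, none was tested, and every interval is an exact (Clopper-Pearson) 95% binomial one that covers counting error only. The files give no read counts, so sequencing depth is unknown, and the absence of a call does not show the absence of the protein.

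BRD2 and BRD3 belong to the BET family, whose paired bromodomains dock on acetylated lysines of histone tails at active promoters and enhancers. I-BET fills the acetyl-lysine pocket of those bromodomains, and BET proteins are known to help RNA polymerase II leave promoters through the elongation factor P-TEFb. In macrophages, BET inhibitors are known for damping inflammatory gene transcription. A region of an I-BET list is thus a place where the protein was called while its bromodomains faced the inhibitor. It need not have been called there in untreated cells.

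Under I-BET the BRD2 and BRD3 lists met at few places. Of the 1067 BRD2 regions, 215 overlapped a BRD3 region, 20.1% (17.8% to 22.7%), and of the 2232 BRD3 regions, 216 overlapped a BRD2 region, 9.68% (8.48% to 11.0%). They formed 216 pairs, called co-bound below. The other 852 BRD2 regions are called BRD2-side and the other 2016 BRD3 regions BRD3-side. Genes that BRD2 held alone included the macrophage genes Csf1r, Cd14, Tlr2, Msr1 and Ctss and 20 of 84 cytosolic ribosomal protein genes. Genes that BRD3 held alone included 18 of 63 replication-dependent histone genes, on 8 regions, and 25 of 86 genes of oxidative phosphorylation. Over all protein-coding genes, 2.79% had BRD2 alone and 8.73% BRD3 alone. The start sites under the lists also differed in sequence: a sequence bound by the factor NRF1 was more common under BRD3 than where BRD2 stood alone.

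Start-site sequences of 8 genes show that difference in letters, each running from 250 bases before the annotated start to 30 bases after it, 5′ to 3′ on the gene's strand. They come from RefSeq's table for GRCm38.p6, which is the mm10 build that the lists use, since no genome was used here. Capitals mark matches, on either strand, to 3 motifs: CGCNTGCGC, a core bound by NRF1 with its N free to be any base, an activator of housekeeping and mitochondrial genes; CCGGAAGT, the core of ETS factors such as GABP; and GAGGAAGT, a core of the myeloid ETS factor PU.1. The first 4 genes are those nearest to the highest-scoring gene-end regions of each class. The highest-scoring BRD2 region in a co-bound pair lay at the lncRNA gene 4921531C22Rik, which runs away from Taf4, and the highest-scoring BRD3 region of a pair at Sec24c. The BRD2-side example is Selenok and the BRD3-side example Cbfb. The other 4 were chosen after their calls and motifs were seen: Rpl37a (called for BRD2 and BRD3), Rps24 and Ctss (BRD2 alone) and Ran (BRD3 alone).

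4921531C22Rik, chr2:179976603-179976882, plus strand: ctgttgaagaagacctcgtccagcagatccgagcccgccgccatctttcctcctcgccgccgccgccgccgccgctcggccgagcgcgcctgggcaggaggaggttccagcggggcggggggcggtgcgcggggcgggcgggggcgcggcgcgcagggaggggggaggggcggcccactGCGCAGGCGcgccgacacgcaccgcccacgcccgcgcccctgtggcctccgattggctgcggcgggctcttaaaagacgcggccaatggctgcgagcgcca
Sec24c, chr14:20674071-20674350, plus strand: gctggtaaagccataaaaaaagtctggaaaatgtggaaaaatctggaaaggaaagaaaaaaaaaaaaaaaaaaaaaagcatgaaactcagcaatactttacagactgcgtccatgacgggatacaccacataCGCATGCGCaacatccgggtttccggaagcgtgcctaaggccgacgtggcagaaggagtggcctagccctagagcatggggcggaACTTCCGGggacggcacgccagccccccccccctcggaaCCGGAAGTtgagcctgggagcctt
Rpl37a, chr1:72711010-72711289, plus strand: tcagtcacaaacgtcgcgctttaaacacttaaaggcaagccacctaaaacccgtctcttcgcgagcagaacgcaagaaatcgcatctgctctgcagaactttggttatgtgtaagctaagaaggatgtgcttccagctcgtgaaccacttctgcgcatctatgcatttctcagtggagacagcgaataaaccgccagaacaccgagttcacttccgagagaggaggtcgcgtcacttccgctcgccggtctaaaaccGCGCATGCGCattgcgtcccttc
Selenok, chr14:29968130-29968409, plus strand: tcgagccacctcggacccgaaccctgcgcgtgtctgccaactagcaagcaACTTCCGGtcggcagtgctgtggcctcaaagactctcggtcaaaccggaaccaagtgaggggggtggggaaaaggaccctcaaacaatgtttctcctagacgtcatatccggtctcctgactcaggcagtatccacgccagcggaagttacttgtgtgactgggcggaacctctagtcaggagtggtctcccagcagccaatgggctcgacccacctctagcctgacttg
Rps24, chr14:24490503-24490782, plus strand: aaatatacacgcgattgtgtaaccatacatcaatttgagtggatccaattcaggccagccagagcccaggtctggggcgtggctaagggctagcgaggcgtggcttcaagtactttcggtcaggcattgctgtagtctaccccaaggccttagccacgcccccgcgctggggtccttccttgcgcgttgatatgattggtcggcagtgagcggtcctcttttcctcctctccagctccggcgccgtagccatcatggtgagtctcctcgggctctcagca
Ctss, chr3:95526536-95526815, plus strand: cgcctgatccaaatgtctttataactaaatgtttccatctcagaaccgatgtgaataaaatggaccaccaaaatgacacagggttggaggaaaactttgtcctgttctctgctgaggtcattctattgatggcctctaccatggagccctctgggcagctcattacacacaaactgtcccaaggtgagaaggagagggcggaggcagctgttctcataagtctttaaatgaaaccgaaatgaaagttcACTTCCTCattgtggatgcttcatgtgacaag
Cbfb, chr8:105170424-105170703, plus strand: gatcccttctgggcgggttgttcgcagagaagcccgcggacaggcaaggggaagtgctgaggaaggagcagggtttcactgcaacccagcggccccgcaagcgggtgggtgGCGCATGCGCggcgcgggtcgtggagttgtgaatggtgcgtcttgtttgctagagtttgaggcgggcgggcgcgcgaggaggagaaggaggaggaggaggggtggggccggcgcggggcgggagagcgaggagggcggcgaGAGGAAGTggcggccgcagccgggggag
Ran, chr5:129019906-129020185, plus strand: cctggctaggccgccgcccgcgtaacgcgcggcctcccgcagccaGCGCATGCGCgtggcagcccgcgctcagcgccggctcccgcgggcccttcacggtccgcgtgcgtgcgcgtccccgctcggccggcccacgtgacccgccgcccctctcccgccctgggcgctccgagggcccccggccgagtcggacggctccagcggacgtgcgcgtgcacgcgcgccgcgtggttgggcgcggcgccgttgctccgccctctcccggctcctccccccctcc

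4921531C22Rik, Sec24c, Rpl37a, Cbfb and Ran, all with a BRD3 call, hold the NRF1 core, and Selenok, Rps24 and Ctss, called for BRD2 alone, do not. Sec24c also holds the ETS core at 2 places and Selenok at 1. The PU.1 core lies across the start of Ctss, which encodes the lysosomal protease cathepsin S, and also just past the start of Cbfb.

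The overlap can be read against the other treatments. Of BRD2 regions, 20.1% overlapped a BRD3 region under I-BET, 45.1% (774 of 1716) under RANKL, 30.2% (74 of 245) under RANKL with I-BET and 54.5% (315 of 578) in untreated cells. Of BRD3 regions, 9.68% overlapped a BRD2 region under I-BET, 20.1% (773 of 3840) under RANKL, 2.60% (74 of 2842) under RANKL with I-BET and 8.53% (313 of 3668) in untreated cells. The length of the lists moves these shares. The longer list of each treatment was also trimmed by score to the length of the shorter. The BRD2 share was then 9.56% under I-BET, 20.7% under RANKL, 3.27% under RANKL with I-BET and 8.82% in untreated cells. The trimmed lists still differed in length between treatments, with 1067 regions each under I-BET and 578 each in untreated cells. These shares therefore cannot tell whether the gap between I-BET and untreated cells comes from list length. The BRD2 list under I-BET was longer than the untreated one (1067 against 578 regions), while the BRD3 list was shorter (2232 against 3668).

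**Figure D1:**
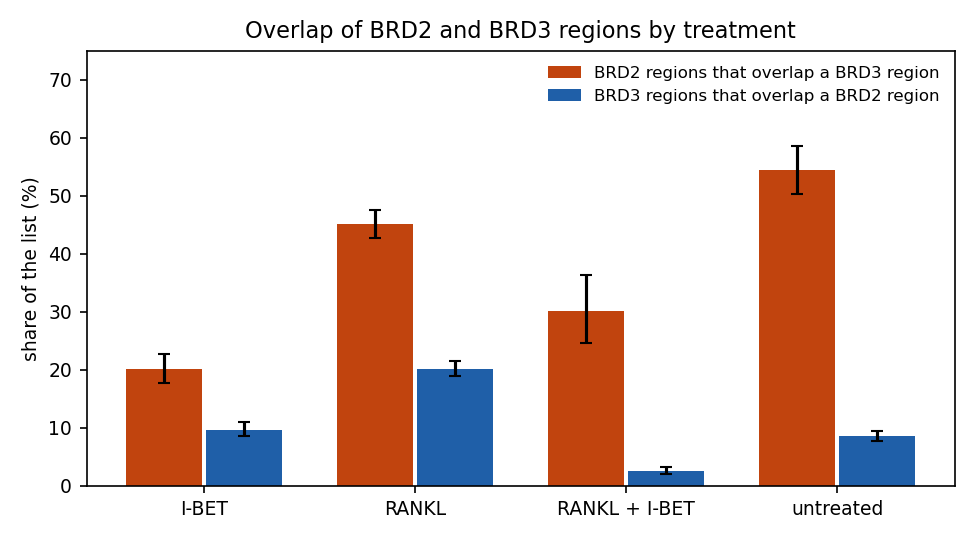
Share of the regions of each list that overlap the other antibody's list by at least 1 bp (y axis, %), for each treatment on the x axis; bars are shares of 1 library each and lines are exact 95% binomial intervals. The BRD2 share was 20.1% under I-BET, the lowest of the 4 treatments, and 54.5% in untreated cells.

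Few regions lay close to the 1 bp limit, though a stricter limit moved more of them. The smallest overlaps among the 216 pairs were 94, 100 and 103 bp, with a median of 616.5 bp. The nearest BRD2-side regions lay 224, 1004 and 1182 bp from a BRD3 region, and the median BRD2-side region lay 197794 bp away. Counting regions up to 500 bp apart as shared would therefore have moved 1 BRD2-side region. When an overlap of at least 50% of both regions was required, the shared part fell to 13.96% of BRD2 and 6.68% of BRD3 regions.

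Within a co-bound pair, the BRD2 region was usually wider than the BRD3 region. The BRD2 region was the wider in 147 of 216 pairs (68.1%, 61.4% to 74.2%), and its median was 898 bp, against 726 bp for BRD3. The BRD3 region lay wholly inside the BRD2 region in 89 pairs, and the reverse held in 17. Midpoints were a median of 175 bp apart. Across the 216 pairs, which come from the same pair of libraries, Spearman's rho was 0.36 for width and -0.02 for the authors' score, as a description. In the 113 pairs that hold start sites of 1 strand only, the BRD2 midpoint lay further into the gene than the BRD3 midpoint in 67 (59.3%, 49.6% to 68.4%), by a median of 54 bp over all 113, and that interval includes an even split.

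BRD2 regions were wider than BRD3 regions outside the pairs too. The width of a region depends on the peak caller and on depth and enrichment, which the lists do not give. The order was not particular to I-BET. Median widths of the BRD2 and BRD3 lists were 877 and 679 bp under RANKL, 612 and 571 bp under RANKL with I-BET, and 828 and 712 bp in untreated cells. Under I-BET, median widths were 841 bp in BRD2-side, 896 bp in BRD2 co-bound, 726 bp in BRD3 co-bound and 632 bp in BRD3-side regions. The share over 1 kb was 38.8% (35.6% to 42.2%) of BRD2-side and 40.0% (33.4% to 46.9%) of BRD2 co-bound regions. It was 21.8% (16.4% to 27.9%) of BRD3 co-bound and 8.58% (7.39% to 9.89%) of BRD3-side regions. Over 3 kb there were 33 BRD2-side and 7 BRD2 co-bound regions, and no BRD3 region.

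Where the regions lay also separated the classes. Regions counted as gene-end ones had a midpoint no further than 1 kb from the start or the end of a protein-coding gene. They were 54.9% (51.5% to 58.3%) of BRD2-side, 78.6% (72.5% to 83.9%) of BRD2 co-bound, 79.2% (73.1% to 84.4%) of BRD3 co-bound and 76.1% (74.2% to 78.0%) of BRD3-side regions. The remaining BRD2-side regions were divided between gene bodies (190 regions, 22.3%) and the space between protein-coding genes (194 regions, 22.8%), against 15.0% and 8.83% of BRD3-side regions. BRD2-side regions away from gene ends were the broader ones: their median width was 944.5 bp in gene bodies and 1040.5 bp between genes, against 761 bp at gene ends. For BRD3-side regions the same medians were 643, 553.5 and 641 bp. Gene bodies with 2 BRD2-side regions each were those of Zmynd8, Tnrc18, Capg, Ikzf1 and Tcf4. Ikzf1 encodes the lymphoid and myeloid factor Ikaros and Capg an actin-capping protein of macrophages.

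At annotated start sites BRD2-side regions sat slightly downstream and BRD3-side regions slightly upstream. An annotated start site lay within 48.6% (45.2% to 52.0%) of BRD2-side, 65.6% (58.8% to 71.9%) of BRD2 co-bound, 70.4% (63.8% to 76.4%) of BRD3 co-bound and 67.1% (65.0% to 69.2%) of BRD3-side regions. Among regions whose midpoint lay within 2 kb of a start site, the median midpoint was at +38.5 bp for BRD2-side, +7 bp for BRD2 co-bound, -16 bp for BRD3 co-bound and -21 bp for BRD3-side regions, where positive values lie inside the gene. The midpoint lay inside the gene for 57.2% (52.8% to 61.6%) of BRD2-side and 39.4% (36.9% to 41.9%) of BRD3-side regions, intervals that do not overlap. Starts on opposite strands, the mark of divergent promoters, lay in 18.8% of BRD2-side, 25.5% of BRD2 co-bound, 23.0% of BRD3 co-bound and 19.0% of BRD3-side regions with a start site, within counting error of each other.

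**Figure D2:**
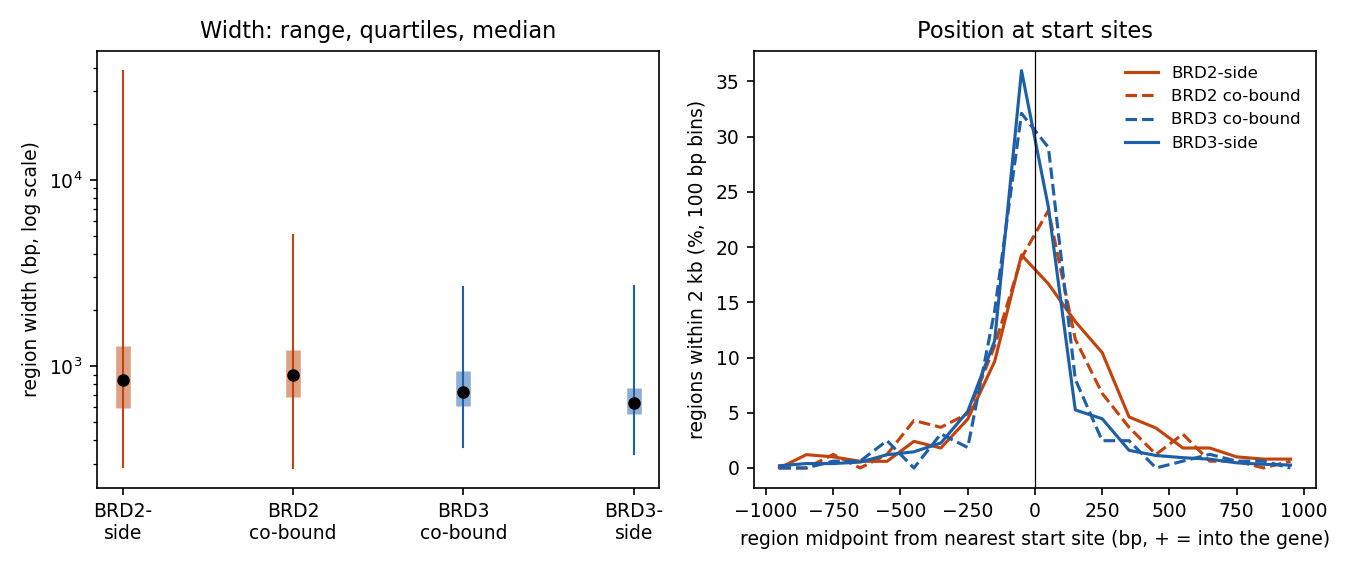
Left, width of the regions in bp on a log scale for the 4 classes, with the median (point), quartiles (thick bar) and full range (thin line). Right, share of regions (%) per 100 bp by distance of the midpoint from the nearest start site, positive into the gene; BRD3-side regions gather just upstream (median -21 bp) and BRD2-side regions spread downstream (median +38.5 bp).

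The widest regions named the genes where the called BRD2 regions were broadest. Among co-bound pairs these included the nuclear RNA Malat1 (BRD2 4698 bp, BRD3 1770 bp). It was followed by the Brd2 gene itself with its neighbour H2-DMa (BRD2 3755 bp), by Spi1 (BRD2 3649 bp, BRD3 948 bp) and by Slc6a12, a transporter gene (BRD2 3530 bp, BRD3 1972 bp). In each of these the BRD2 region was at least 1.5 kb wider, a choice of genes that width itself made. Among BRD2-side regions, Neat1, the RNA scaffold of paraspeckles, had a 7939 bp region and Tnrc18 one of 6627 bp. In untreated cells BRD3 had been called over both, at 6435 bp over Neat1 and 6911 bp over Tnrc18. The widest BRD3-side regions lay at Sirt4 (2701 bp), Ing1 (2554 bp), Skil (2552 bp), Hnrnpl (2348 bp) and the histone pair H2bc23 and H2ac23 (2342 bp).

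Some BRD2 calls lay in sequence that repeats or is present in many copies, and they are in the counts above. The widest BRD2 region of all covered 38569 bp at the start of chromosome 9 (chr9:2999873-3038441, mm10), 2 regions lay on the mitochondrial genome and 1 of 5934 bp lay at the 18S ribosomal RNA pseudogene Rn18s-rs5. Scores in the BRD2 list also followed the chromosome: of 118 regions with a score over 150, 72 lay on chromosome 9, 21 on chromosome 14, 16 on chromosome 2 and 5 on chromosome 8. The median score was 205 on chromosome 9 and 216.5 on chromosome 14, while it lay between 39.2 and 56 on every other nuclear chromosome. In the BRD3 list, 34 regions scored over 150, with no more than 6 on any chromosome. The part of this pattern in any order by score was not tested, and the highest-scoring BRD2 genes named below mostly lie on those chromosomes.

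What the other 6 lists held at these places set BRD2-side regions apart again. BRD3-side regions recurred in BRD3 lists: 90.1% were called under RANKL, 94.2% under RANKL with I-BET and 87.7% in untreated cells. Co-bound BRD2 regions were alike in this, at 92.1%, 93.0% and 84.7%. BRD2-side regions had a BRD3 call in 33.8% (30.6% to 37.1%) under RANKL, 5.75% (4.28% to 7.53%) under RANKL with I-BET and 35.4% (32.2% to 38.8%) in untreated cells. So of 852 places with BRD2 and no BRD3 under I-BET, 302 had a BRD3 region in untreated cells and 49 had one under RANKL with I-BET. In the BRD2 lists, BRD2-side regions were called for BRD2 in 48.4% under RANKL, 13.1% under RANKL with I-BET and 24.5% in untreated cells, co-bound BRD2 regions in 52.1%, 19.5% and 29.8%, and BRD3-side regions in 11.8%, 1.04% and 3.57%. A call in no other list was found for 24.9% of BRD2-side regions, 0.47% of co-bound BRD2 regions and 0.55% of BRD3-side regions. The lists differ in length, from 245 to 3840 regions, which limits each share.

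**Figure D3:**
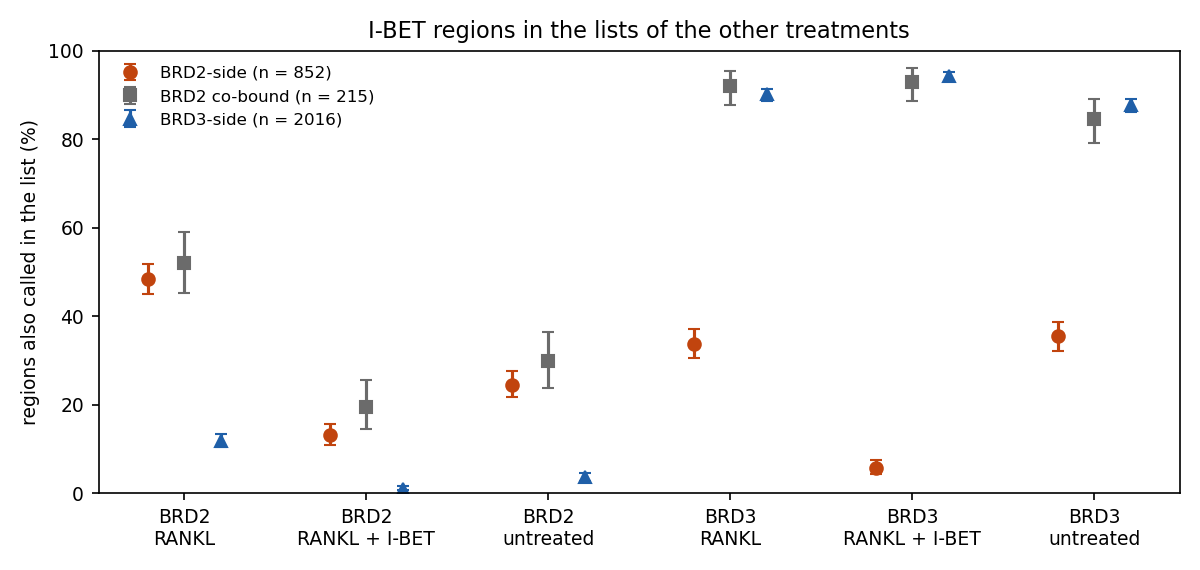
Share (%) of BRD2-side, co-bound BRD2 and BRD3-side regions under I-BET that overlap a region of each of the other 6 lists on the x axis; points are shares and lines exact 95% binomial intervals. BRD3-side and co-bound regions sit between 84.7% and 94.2% in the 3 BRD3 lists, while BRD2-side regions sit between 5.75% and 35.4%.

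The BRD2-side places that carried BRD3 in untreated cells were the wide ones, under either protein. Of BRD2-side regions wider than their median, 48.8% (44.0% to 53.7%) had a BRD3 region in untreated cells, against 22.1% (18.2% to 26.3%) of the others, and a wide region has more room to overlap another. By position the share was 40.9% away from gene ends and 31.0% at gene ends. The 300 untreated BRD3 regions under BRD2-side regions had a median width of 1292 bp, and 82 of them (27.3%) were over 2 kb. The 182 under co-bound BRD2 regions had a median of 983 bp with 9.89% over 2 kb, and the 1771 under BRD3-side regions a median of 645 bp with 2.71% over 2 kb. Zeb2, a zinc finger factor gene expressed in macrophages, is the extreme in width: its untreated BRD3 region was 10614 bp wide, and under I-BET it had a BRD2 region of 2523 bp and no BRD3 region.

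Joining all regions of the I-BET and untreated lists into 4625 sites followed each place between the conditions. Of 312 sites with BRD2 and BRD3 in untreated cells, 92 (29.5%, 24.5% to 34.9%) had BRD2 only under I-BET, 66 (21.2%, 16.8% to 26.1%) BRD3 only, 55 (17.6%) both and 99 (31.7%) neither. Of 3353 sites with BRD3 only in untreated cells, 205 (6.11%) had BRD2 only under I-BET, 129 (3.85%) both, 1700 (50.7%) BRD3 only and 1319 (39.3%) neither. Of 263 sites with BRD2 only, 115 (43.7%) had BRD2 only under I-BET, 8 (3.04%) BRD3 only, 10 (3.8%) both and 130 (49.4%) neither. Of the 847 sites with BRD2 only under I-BET, 435 (51.4%) had neither protein in untreated cells. The corresponding number for BRD3 only was 239 of 2013 (11.9%).

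Genes were counted as called when a region overlapped the window within 1 kb of either end, which holds the 3′ end as well as the promoter. Of 21887 protein-coding genes, 830 had a BRD2 call under I-BET (3.79%) and 2130 a BRD3 call (9.73%). These shares are the background for every list of protein-coding genes below. In the other lists the background was 6.21% of genes for BRD2 and 13.7% for BRD3 under RANKL, 0.978% and 11.9% under RANKL with I-BET, and 2.26% and 14% in untreated cells. There were 610 genes with BRD2 alone (2.79%), 220 with BRD2 and BRD3 (1.01%) and 1910 with BRD3 alone (8.73%). In 212 of the 220 the regions themselves overlapped. Outside the gene lists, the top genes by score were Selenok, Rbm39, Npepl1, Stx16 and Ccdc66 for BRD2 alone, Taf4, Saysd1, Nek4, Vps13c and Sec24c for BRD2 and BRD3, and Cbfb, Tada2b, Ccdc96, B9d2 and Tbc1d1 for BRD3 alone. Cbfb encodes the partner of RUNX factors, Taf4 a subunit of the general factor TFIID and Rbm39 a splicing factor.

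Macrophage identity genes called under I-BET stood mostly with BRD2. Of 35, 12 had a BRD2 call (34.3%, 19.1% to 52.2%, against 3.79% of all genes) and 2 a BRD3 call (5.71%, 0.70% to 19.2%, against 9.73%). With BRD2 alone were Csf1r, the receptor for M-CSF, the lipopolysaccharide co-receptor gene Cd14, Tlr2, the scavenger receptor gene Msr1, the integrin gene Itgb2, Cd68, Ctss, Laptm5, Zeb2 and the NADPH oxidase subunit genes Ncf1 and Ncf4. BRD2 and BRD3 met at Spi1, which encodes PU.1, the master factor of the lineage. The gene with BRD3 alone was Fcer1g, an Fc receptor chain, with a 604 bp region that also lies in the window of a neighbouring gene. Fewer genes of this list were counted when only a window of 1 kb around annotated start sites was used, 5 for BRD2 and 1 for BRD3, and the table of start sites holds 25 of the 35. By gene ends, BRD2 and BRD3 calls in the other treatments were 11 and 16 of the 35 under RANKL, where 6.21% and 13.7% of all genes were called. They were 3 and 4 under RANKL with I-BET (0.978% and 11.9% of all genes) and 5 and 13 in untreated cells (2.26% and 14%).

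The BRD2 regions at 11 of the 12 macrophage genes were between 1632 and 4047 bp wide and that at Ctss 623 bp. Median widths were 841 bp in all BRD2-side regions, 761 bp in those at gene ends, and 896 bp in BRD2 co-bound regions, which include that at Spi1. Regions were placed at gene ends by midpoint, while genes were called by any overlap, for which a wide region has more room. The macrophage widths are thus not set against a like group of regions. For 7 of the 11 with BRD2 alone BRD3 was called in untreated cells, against 199 of all 610 genes with BRD2 alone (32.6%). Csf1r had a BRD2 region of 3313 bp and no BRD3 region under I-BET, against a BRD3 region of 3095 bp and no BRD2 region in untreated cells. Under RANKL it had BRD2 over 2721 bp and BRD3 over 3294 bp, and under RANKL with I-BET neither. Msr1 followed the same order, with BRD2 over 4027 bp under I-BET against BRD3 over 3109 bp in untreated cells. Laptm5, a lysosomal membrane protein gene of blood cells, had BRD2 over 1842 bp under I-BET and BRD3 over 1273 bp in untreated cells. Ncf4 had BRD2 over 4047 bp under I-BET and BRD3 over 4258 bp in untreated cells, at almost the same width. Ctss had BRD2 over 623 bp under I-BET and BRD3 over 1115 bp in untreated cells. Tlr2 and Cd14 had BRD2 regions of 2377 and 2630 bp under I-BET and no call in untreated cells, while both proteins were called at them under RANKL.

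Spi1 held BRD2 over 3649 bp and BRD3 over 948 bp under I-BET, against 2750 bp and 4010 bp in untreated cells. Under RANKL its regions were 4851 bp for BRD2 and 6587 bp for BRD3, and under RANKL with I-BET 605 bp for BRD2 with no BRD3 call. Relative to untreated cells, the BRD2 region of Spi1 was thus wider under I-BET and its BRD3 region narrower. The whole lists moved the same way in median width, from 828 to 858 bp for BRD2 and from 712 to 640 bp for BRD3. Cebpa, a partner of PU.1 in myeloid cells, was the converse case: it had no call under I-BET and both calls in untreated cells, at 859 bp for BRD2 and 2116 bp for BRD3. Irf8, another lineage factor gene, was called in none of the 8 lists.

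The BRD2 calls matched the label of the line as far as they go, while BRD3 calls at macrophage markers under I-BET were near their background. Of 10 macrophage markers, 6 were called for BRD2 and 1 for BRD3 under I-BET, with Lyz2, Itgam, Adgre1 and Cebpa uncalled. Over all genes the shares were 3.79% and 9.73%. None of 16 markers of B cells, T cells, fibroblasts and osteoblasts or erythroid cells was called in any of the 8 lists, which called from 0.978% to 14% of all genes. None of 6 osteoclast markers was called under I-BET. Of the 30 osteoclast genes none was called for BRD2 or BRD3 under I-BET (0%, up to 11.6%), an interval that includes both backgrounds. These zeros come from short lists and are counts only. Ctsk, which encodes cathepsin K, was among the uncalled and had a BRD3 region of 1799 bp under RANKL.

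Few genes of the RANK and NF-kB pathway were called. Of 32, 3 had a BRD2 call (9.38%, against 3.79% of all genes) and 4 a BRD3 call (12.5%, against 9.73%), and none had both, where the share of all genes with both was 1.01%. BRD2 was called at the NF-kB subunit genes Nfkb1 (1095 bp) and Rel (885 bp) and at Nfkbiz (632 bp), which encodes an atypical inhibitor-like cofactor. BRD3 was called at the subunit gene Rela (1028 bp) and at the upstream genes Map3k14 (664 bp), Traf3 (765 bp) and Tab1 (691 bp), which carry signals from receptors to the kinases. All 4 BRD3 genes had BRD3 calls in the other 3 conditions too. Most of the 1910 genes with BRD3 alone had them as well: 90.6% under RANKL, 94.0% under RANKL with I-BET and 88.1% in untreated cells. Rel and Nfkbiz had no call in untreated cells and a BRD2 call under RANKL. With 3 and 4 genes, these are counts only.

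Signal-response genes were seldom called. Of 28 immediate-early genes, BRD2 alone was called at Klf6 and BRD3 alone at Fosb and Jund. Of 28 inflammatory genes, BRD2 was called at Lilrb4a and BRD3 at none. Of 28 interferon genes, BRD2 was called at Irf2, and BRD3 at Ifnar1, a subunit of the type I interferon receptor, at Irf3 and at Tbk1, the kinase that activates IRF3. For antigen presentation, 20 genes, both proteins were called at H2-DMa and BRD3 alone at Rfxap, a part of the complex that drives MHC class II genes. These shares, 3.57% to 5% for BRD2 and 0% to 10.7% for BRD3, lay around the background.

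MYC network genes had calls of either protein above the background of each. Of 36 genes of the MYC network, 9 had a BRD2 call (25%, 12.1% to 42.2%, against 3.79%) and 13 a BRD3 call (36.1%, 20.8% to 53.8%, against 9.73%), and those intervals overlap. BRD3 alone was called at the partner gene Max, at Mlx, at Cdk4, at Odc1 for polyamine synthesis, and at Npm1, Ncl, Pa2g4, Phb and Ran. BRD2 alone was called at Eif4a1, Phb2, Ppan and the divergent chaperonin pair Hspd1 and Hspe1, which share a region. Both were called at Eif4e, Mybbp1a, Nop56 and Wdr43, which serve translation and ribosome assembly. Myc itself had no call under I-BET or in untreated cells, and was called for BRD2 (455 bp) and BRD3 (422 bp) under RANKL with I-BET.

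Of 30 genes of BET proteins and transcription elongation, 2 were called for BRD2 (6.67%) and 9 for BRD3 (30%, 14.7% to 49.4%). Both proteins were called at Hexim1, which encodes the inhibitor of P-TEFb and is a known marker of BET inhibition, and at Brd2 itself. Hexim1 had BRD2 over 1300 bp and BRD3 over 1403 bp under I-BET, against no BRD2 and BRD3 over 1697 bp in untreated cells. At Brd2 these were 3755 bp and 1113 bp under I-BET, against no BRD2 and BRD3 over 3902 bp in untreated cells. A further BRD3 region of 1361 bp overlapped the same BRD2 region under I-BET. BRD3 alone was called at Ccnt2 (a cyclin of P-TEFb), Ell, Mllt3, Mepce, Nelfcd, Supt4a and Polr2a, the largest subunit of RNA polymerase II. Brd3 was called for neither protein under I-BET.

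Cytosolic ribosomal protein genes were the list with most BRD2 calls under I-BET. Of 84, 35 had a BRD2 call (41.7%, 31.0% to 52.9%) and 17 a BRD3 call (20.2%, 12.3% to 30.4%). BRD2 and BRD3 calls were 43 and 34 of the 84 under RANKL, where 6.21% and 13.7% of all genes were called. They were 18 and 21 under RANKL with I-BET (0.978% and 11.9% of all genes) and 22 and 35 in untreated cells (2.26% and 14%). Under I-BET, BRD2 stood alone at 20, among them Rps24, Rpl29, Rpl3, Rps7 and Rpl32, and with BRD3 at 15, among them Rpl14, Rpsa, Rpl4, Rps12 and Rpl37a. BRD3 alone was called at Rpl10 and Fau. Most BRD2-alone genes lacked BRD3 in untreated cells, in this list as over all genes. It was called at 4 of the 20, against 199 of all 610 genes with BRD2 alone (32.6%). Rps24 had BRD2 over 454 bp under I-BET, against 510 bp for BRD2 and 984 bp for BRD3 in untreated cells. Rpl37a had BRD2 over 801 bp and BRD3 over 519 bp under I-BET, against 479 bp and 571 bp in untreated cells.

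Replication-dependent histone genes had BRD3 calls and no BRD2 call under I-BET. Of 63, none had a BRD2 call (0%, up to 5.69%, against 3.79% of all genes) and 18 had a BRD3 call (28.6%, 17.9% to 41.3%, against 9.73%). Because the genes stand in tight clusters, these 18 rest on 8 BRD3 regions, on chromosomes 3 and 13. Several of these regions had been wider in untreated cells. That at H4c17, H2ac23 and H2bc23 measured 2342 bp under I-BET and 3466 bp in untreated cells. The widths were 767 bp and 3034 bp at H2ac13 and H2bc13, and 556 bp and 1900 bp at H2bc15 and H2ac15. Wide BRD3 regions were fewer under I-BET over the whole list too, with 20 of 2232 over 2 kb, against 281 of 3668 in untreated cells. In untreated cells 48 of the 63 had a BRD3 call and 1 a BRD2 call, where the BRD3 background was 14% of genes. Under RANKL, 9 had a BRD2 call.

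Genes of oxidative phosphorylation were called above the background of each protein, with 10 of 86 called for BRD2 (11.6%, 5.72% to 20.3%, against 3.79%) and 29 for BRD3 (33.7%, 23.9% to 44.7%, against 9.73%). BRD3 alone held 25, among them Ndufs5, Cox6c, Ndufa5 and Uqcrb, which encode parts of respiratory complexes I, III and IV. BRD2 alone held 6, among them Ndufb5, Ndufs4, Ndufc2, Atp5pb and Ndufa11, and both held Sdhd, Atp5g2, Ndufa13 and Ndufb6. Mitochondrial ribosomal protein genes had 17 of 78 called for BRD2 (21.8%, against 3.79%) and 20 for BRD3 (25.6%, against 9.73%). Those called for both were 2, Mrpl57 and Mrps18b. BRD2 alone held Mrpl3, Mrps31 and Mrpl21, and BRD3 alone Mrpl14, Mrpl12 and Mrpl44.

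The BRD3 background (9.73% of genes) is itself higher than the BRD2 one (3.79%), and the next lists had more BRD3 than BRD2 calls. RNA polymerase subunit genes had 1 BRD2 call, at Polr2m, and 8 BRD3 calls of 28 (28.6%, 13.2% to 48.7%), led by Polr2c, Polr1a and Polr2h. Mediator and Integrator genes had 3 BRD2 and 12 BRD3 calls of 47 (6.38% and 25.5%), with both at Ints13 and Med7. Lysosome and V-ATPase genes had 5 BRD2 and 12 BRD3 calls of 49 (10.2% and 24.5%): Glb1 and Ctsa were BRD2 alone, and Atp6v0d1, Atp6v1b2 and Mcoln1 BRD3 alone. DEAD and DEAH box helicase genes had 5 and 13 of 53 (9.43% and 24.5%), and aminoacyl-tRNA synthetase genes 5 and 9 of 39 (12.8% and 23.1%). Zinc finger genes named Zfp had 15 and 43 of 394 (3.81% and 10.9%), close to the background of each protein, and none was called for both.

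Other lists were mixed, beside backgrounds of 3.79% for BRD2 and 9.73% for BRD3. Splicing and hnRNP genes had 19 BRD2 calls (28.4%) and 25 BRD3 calls (37.3%) of 67, with 7 called for both, among them Srsf4, Hnrnpa1 and U2af1. Hnrnpc, Srsf6 and Srsf3 were BRD2 alone, and U2af2, Snrpd2 and Sf3b1 BRD3 alone. Translation factor genes had 14 and 19 of 73 (19.2% and 26.0%), with Eef1a1 and Eif3m at BRD2 alone and Eif3e and Eif3k at BRD3 alone. Chaperone genes had 11 and 17 of 83 (13.3% and 20.5%). Both proteins were called at Hspa8, Hspa9, Hspa4 and Cct3 and BRD2 alone at Hspa5, the chaperone of the endoplasmic reticulum. Proteasome genes had 9 and 5 of 48 (18.8% and 10.4%, the latter near the BRD3 background), with Psmb5 and Psmb2 at BRD2 alone. Among 408 transfer RNA genes, which RNA polymerase III transcribes, 3 had a BRD2 call (0.735%) and 34 a BRD3 call (8.33%, 5.84% to 11.5%), on 2 BRD2 and 24 BRD3 regions. These shares cannot be set directly beside those of protein-coding genes. The windows at the 2 ends of a short transfer RNA gene nearly coincide, so less sequence was searched for each. The interval also counts genes that share a region as separate.

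**Figure D4:**
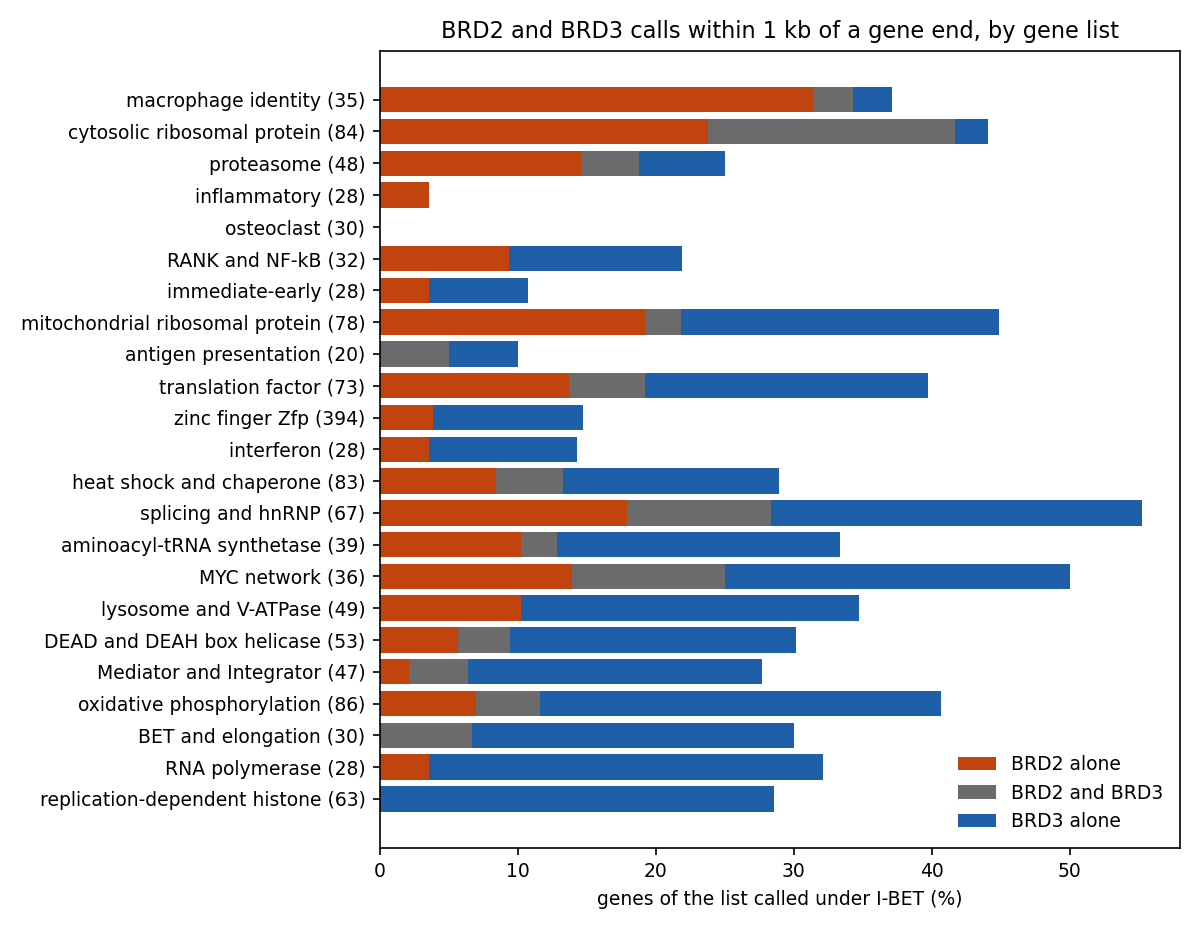
Share of each gene list (x axis, %) with a call within 1 kb of a gene end under I-BET, split into BRD2 alone, BRD2 and BRD3, and BRD3 alone, with the number of genes of each list in brackets. Lists run from those with more BRD2 calls at the top (macrophage identity, 12 of 35 with BRD2) to those with more BRD3 calls at the bottom (histones, 18 of 63 with BRD3 and none with BRD2).

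The sequences printed above fit into a wider pattern at start sites. Windows of 300 bases around the start of 27025 genes were searched on both strands, with 1 window per gene. A start site was classed by the regions that hold it, so these numbers differ from the gene-end counts above. The exact 8-base NRF1 core GCATGCGC was found in 10 of 508 windows under BRD2 alone (1.97%, 0.95% to 3.59%), 48 of 163 under BRD2 and BRD3 (29.4%, 22.6% to 37.1%) and 399 of 1646 under BRD3 alone (24.2%, 22.2% to 26.4%). The core CGCNTGCGC, with 1 free base, was found in 24 of 508 (4.72%, 3.05% to 6.95%), 104 of 163 (63.8%, 55.9% to 71.2%) and 989 of 1646 (60.1%, 57.7% to 62.5%). The letters of both forms were chosen after the windows had been compared, so the shares are a description. Over all windows the exact form was in 2.89% and the free form in 6.72%, and in windows under none of the 8 lists in 0.945% and 1.76%. The interval of the free form under BRD2 alone includes its share over all windows, which also hold the BRD3 ones. Windows with BRD3 had it at a like share with and without BRD2. The 10 BRD2-alone genes with the exact core included Eef1a1, Ogt, Huwe1, Ly86 and Ndufa11.

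The difference was also seen among windows of like CpG content. The median GC content was 60.0% under BRD2 alone, 65.3% under both and 64.0% under BRD3 alone, and the median observed over expected CpG ratio was 0.824, 0.934 and 0.888. Among windows with a CpG ratio of at least 0.8, the free form was in 6.34% (18 of 284) under BRD2 alone, 64.6% (82 of 127) under both and 64.2% (740 of 1152) under BRD3 alone. Below that ratio it was in 2.68%, 61.1% and 50.4%. The exact core lay a median of 54 bases before the start under BRD2 alone, 49.5 under both and 47 under BRD3 alone.

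The same sequence separated BRD3 start sites that were and were not called under I-BET. Of 1559 start sites with BRD3 in I-BET and in untreated cells, 62.5% (60.1% to 64.9%) had the free form, against 21.2% (18.7% to 23.9%) of 1018 with BRD3 in untreated cells and not under I-BET. Where BRD3 was called in untreated cells and BRD2 alone under I-BET, it was in 15 of 158 (9.49%, 5.41% to 15.2%). By list, the free form was in 19.1% of start sites under BRD2 and 60.4% under BRD3 in I-BET, against 17.8% and 46.2% in untreated cells. These lists share places, so the shares are not independent of each other.

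Within gene lists the free form was split between BRD2 and BRD3 calls much as over all windows. Those shares were 4.72% under BRD2 alone, 63.8% under both and 60.1% under BRD3 alone. Of oxidative phosphorylation start sites, 1 of 6 with BRD2 alone had the free form and 13 of 23 with BRD3 alone, among them Uqcrc1, Sdha, Cox6a1 and Ndufs5. Of mitochondrial ribosomal protein start sites it was 0 of 11 and 11 of 16. Of Zfp start sites it was 0 of 14 with BRD2 alone and 20 of 37 with BRD3 alone. With no call under I-BET it was 17 of 278, where 6.72% of all windows had it. Of cytosolic ribosomal protein start sites, 0 of 13 under BRD2 alone had it and 6 of 13 under both, namely Rpl37a, Rpl5, Rps16, Rpsa, Rpl19 and Rpl7l1. Histone genes were an exception, with 0 of 15 under BRD3 alone.

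Other motifs differed less. The ETS core CCGGAAGT was in 14.6% (11.6% to 17.9%) of windows under BRD2 alone, 17.2% (11.7% to 23.9%) under both and 8.57% (7.26% to 10.02%) under BRD3 alone, against 4.03% of all windows. The PU.1 core GAGGAAGT was in 6.89% (4.85% to 9.45%), 3.68% (1.36% to 7.84%) and 2.00% (1.38% to 2.80%), against 3.28% of all. The YY1 core AAGATGGC, of a factor common at ribosomal protein promoters, was in 8.86%, 11.0% and 6.01%, against 2.92%. The GC box GGGCGG of SP and KLF factors was in 54.1%, 65.0% and 74.2%, against 36.1%. The NFY box CCAAT was in 27.2%, 23.3% and 34.4%, against 37.9%. The E-box CACGTG, which MYC and MAX can bind, was in 11.2%, 9.82% and 11.8%, against 7.27%. The TATA box TATAAA was in 9.06%, 4.91% and 4.43%, against 14.1%, the AP-1 site TGANTCA in 5.71%, 4.29% and 3.16%, against 7.92%, and the CRE TGACGTCA in 2.56%, 0.61% and 3.40%, against 1.87%. GAGGAAGT and CCGGAAGT share the letters GGAAGT but no match counts for both. A match says that the letters are in the window, not that the factor was bound.

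**Figure D5:**
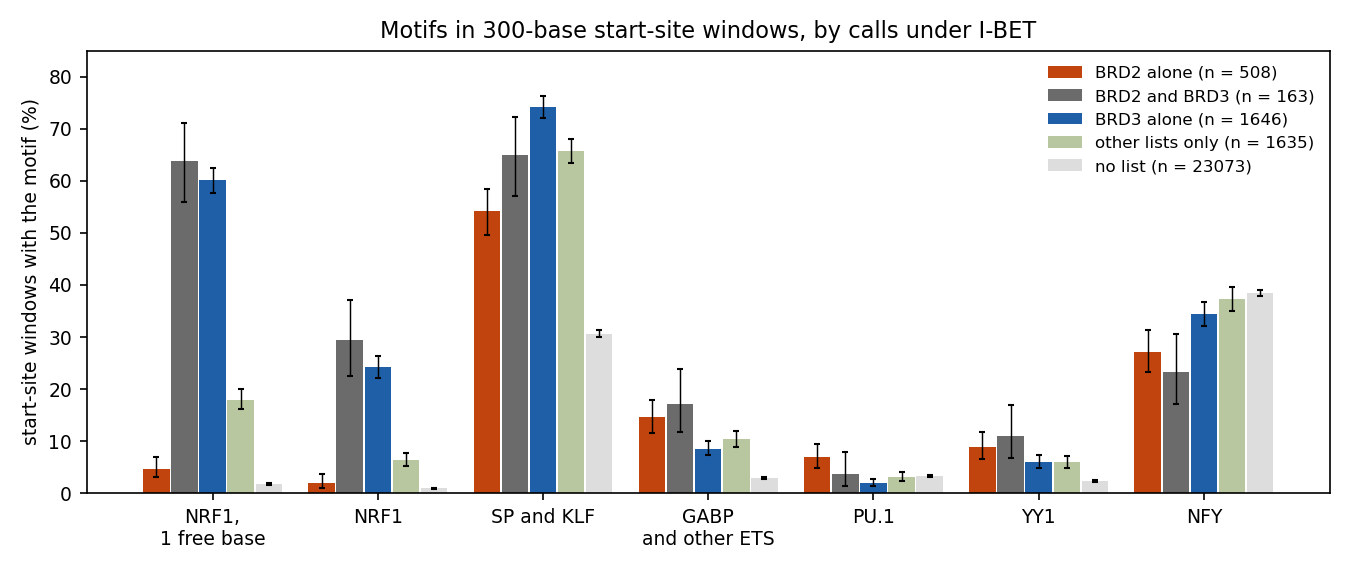
Share of 300-base start-site windows (y axis, %) that hold each motif on the x axis, by the calls at the start site under I-BET; bars are shares, lines exact 95% binomial intervals, and n is the number of windows. The NRF1 core with 1 free base is in 4.72% of windows under BRD2 alone, 63.8% under BRD2 and BRD3 and 60.1% under BRD3 alone.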

How the data were processed

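Per the labels' protocols, ChIP DNA from RAW264.7 cells was sequenced as single-end reads of 50 bp. The submitters' processing notes name FastQC, the aligner Bowtie2 2.3.4.1, the peak caller MACS2 2.1.1.20160309 and, for the genome, mm10 (GRCm38), with no settings. The authors deposited peak lists with positions and a score per region; per the peak names in the files, 98.4% and 99.96% of the I-BET regions join exactly 3 peaks, from sets numbered 3, 5 and 7, of unstated meaning. The score is the authors' own value and was used only to rank and trim regions within a list. Depth is unknown, and the 4 inputs were not used here.

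Overlaps, locations and motif counts were computed from the lists with Python 3.11.15, pandas 2.3.3 and scipy 1.17.1, checked on simulated data. Gene positions and start-site windows (250 bases before to 50 after the start) are RefSeq's for GRCm38.p6; 17492 of 21887 protein-coding genes had a window. Of 1869 list members sought, 1867 matched. The members, gene lists and tests were chosen with earlier results of these data known. The rule for named genes took, from each call class, up to 30 members of the macrophage, signalling, MYC and BET lists and up to 10 of each other list by score, the 5 highest-scoring genes outside the lists, the 5 highest-scoring and 5 widest regions, and fixed genes; gene bodies with 2 regions and the genes named for their NRF1 sequence were chosen after their values were seen. Alternatives were stricter and looser overlap, trimmed lists and other gene windows. A few genes that the rule names are not reported here.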

Additional observations from a re-analysis of the deposited data

How the results depend on the processing

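No paired analysis was possible because each antibody and treatment has 1 library, and no library could be left out for the same reason. Of 297 repeats of the main results under other settings, 223 stayed within the counting interval of the value (within 1.5 times for counts) and 74 moved. Median widths moved under none of the settings run for them. At an overlap of at least 50% of both regions, 13.96% of BRD2 and 6.68% of BRD3 regions were shared under I-BET, 37.5% and 16.7% under RANKL, 18.4% and 1.58% under RANKL with I-BET, and 45.7% and 7.20% in untreated cells. With the upper 50% by score these pairs were 8.82% and 4.21%, 22.3% and 9.95%, 13.1% and 1.13%, and 26.3% and 4.14%. In lists of equal length within each treatment, but not between treatments, the BRD2 share was 9.56% under I-BET, 20.7% under RANKL, 3.27% under RANKL with I-BET (also the BRD3 share) and 8.82% in untreated cells.

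Calls in other lists moved at 50% overlap. BRD2-side regions were called for BRD2 in 41.2% under RANKL and 10.5% under RANKL with I-BET, and for BRD3 in 25.4% under RANKL, 4.14% under RANKL with I-BET and 28.6% in untreated cells. For co-bound BRD2 regions the BRD3 shares were 85.2%, 74.5% and 78.5%, and for BRD3-side regions 82.9%, 90.2% and 79.6%, with BRD2 in 7.68% under RANKL and 2.45% in untreated cells. With the upper 50% by score, BRD2-side regions had BRD3 in 38.3% under RANKL and 15.6% under RANKL with I-BET. Co-bound BRD2 regions then had BRD3 in 95.7% under RANKL and 93.6% in untreated cells, and BRD2 in 25.5% under RANKL with I-BET and 38.3% in untreated cells. BRD3-side regions had BRD3 in 91.5% under RANKL and 89.9% in untreated cells, BRD2 in 14.5% under RANKL and 4.77% in untreated cells, and 78.0% lay at a gene end. At equal length, BRD2-side regions had BRD3 in 40.3% under RANKL, 15.96% under RANKL with I-BET and 40.5% in untreated cells, co-bound BRD2 regions in 91.2% in untreated cells, and BRD3-side regions in 89.6%, with BRD2 in 0.415% under RANKL with I-BET.

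Gene counts fell with trimmed lists by construction. The upper 50% gave 358 genes for BRD2 alone, 47 for both and 1054 for BRD3 alone, 6 macrophage genes for BRD2, 14 cytosolic ribosomal protein genes for BRD2 and 7 for BRD3, and 11 histone genes for BRD3. Equal length gave 107 genes for both, 948 for BRD3 alone, and 7 ribosomal protein and 11 histone genes for BRD3. The start-site window gave 5 macrophage genes for BRD2 and 1 for BRD3. Within 2.5 kb, the share at a gene end was 62.6% of BRD2-side, 85.1% of BRD2 co-bound, 85.2% of BRD3 co-bound and 82.3% of BRD3-side regions. Counting any overlap with the 1 kb window gave 59.7% of BRD2-side and 78.3% of BRD3-side regions.

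Chosen after seeing the data were the NRF1 core with 1 free base (4.72% under BRD2 alone, 63.8% under both, 60.1% under BRD3 alone), start sites within 1 kb of a region (exact core, 20.9% under BRD3 alone), windows of high CpG ratio, and lists without chromosomes 2, 8, 9 and 14 or without the repeat regions; the last 3 moved none of the results run under them. The cause of these shifts was not tested. With no counts in the lists, a missing call can reflect depth, which limits every statement that a protein stood alone.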
